A study of Mus musculus with 9 samples.

Results

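Fc receptor transcripts were followed in mouse bone marrow (BM)-derived Mϕs through 6 genes: Fcgr1, Fcgr3 and Fcgr4, which encode the activating receptors for IgG, Fcgr2b, which encodes the inhibitory receptor, Fcer1g, which encodes the signaling chain that the activating receptors share, and Fcgrt, which encodes the heavy chain of FcRn. They were chosen by name as IgG receptors and their signaling chain, with earlier results of these data known. They are 6 of the 53379 genes in the table. All 6 were among the 12824 genes with a mean of at least 0.5 FPKM (fragments scaled to the length of the gene and the depth of the library) that were tested. Every library came from C57BL/6 BM cells grown with 10 ng/ml M-CSF (CSF-1), the growth factor that turns BM cells into Mϕs, for 3 days. For a further 4 days the control cells had M-CSF at 10 ng/ml alone, the IL-4 cells the same with 10 ng/ml IL-4, and the IL-6 cells the same with 100 ng/ml IL-6, so that no group was free of M-CSF. These doses follow the labels of the libraries, while the methods of the study give another dose of IL-4 and its legends other doses and another time. Each group has 3 libraries.

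Activating Fcγ receptors bind the Fc part of IgG on opsonized targets. They signal through the ITAM of the FcRγ chain, which Src family kinases phosphorylate and which then recruits Syk, and this drives phagocytosis and cytokine release. FcγRIIB carries an ITIM instead, recruits the lipid phosphatase SHIP1 and restrains the same pathway, so the balance of activating and inhibitory receptors sets how readily a Mϕ responds to immune complexes. FcRn works inside the cell, where with β2-microglobulin it returns endocytosed IgG and albumin to the surface.

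The promoters of the 4 Fcγ receptor genes are shown so that the window of Fcgr1, which fell with IL-4, can be set beside those of receptor genes that did not pass there. The windows run from 250 bases before to 50 bases after the start site in RefSeq on GRCm38.p6, 5′ to 3′ on the strand of the gene. Fcgr1 lies at chr3:96293920-96294219 on the minus strand, Fcgr3 at chr1:171059354-171059653 on the minus strand, Fcgr4 at chr1:171018676-171018975 on the plus strand and Fcgr2b at chr1:170976022-170976321 on the minus strand. Capitals mark TTC and GAA with 3 bases between them, the spacing that most STAT factors bind, and GAGGAA or its complement, the core that PU.1 recognizes. STAT factors carry the IL-4 and IL-6 signals to the nucleus, and PU.1 is the lineage factor of myeloid cells.
Fcgr1: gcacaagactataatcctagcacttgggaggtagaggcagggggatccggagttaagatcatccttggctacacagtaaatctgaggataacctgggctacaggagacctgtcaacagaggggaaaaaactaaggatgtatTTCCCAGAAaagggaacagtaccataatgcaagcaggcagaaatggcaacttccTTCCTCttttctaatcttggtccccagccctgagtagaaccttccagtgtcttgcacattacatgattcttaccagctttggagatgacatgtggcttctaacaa
Fcgr3: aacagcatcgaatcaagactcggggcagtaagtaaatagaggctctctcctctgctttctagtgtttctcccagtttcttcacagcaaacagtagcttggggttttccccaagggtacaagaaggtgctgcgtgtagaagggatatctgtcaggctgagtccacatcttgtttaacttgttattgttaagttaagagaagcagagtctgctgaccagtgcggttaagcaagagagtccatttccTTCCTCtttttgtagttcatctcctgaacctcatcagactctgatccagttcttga
Fcgr4: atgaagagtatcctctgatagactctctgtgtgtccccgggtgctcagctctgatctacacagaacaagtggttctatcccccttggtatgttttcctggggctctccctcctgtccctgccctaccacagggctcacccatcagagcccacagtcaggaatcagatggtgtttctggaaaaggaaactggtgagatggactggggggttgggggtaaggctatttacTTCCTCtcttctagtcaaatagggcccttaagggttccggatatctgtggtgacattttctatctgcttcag
Fcgr2b: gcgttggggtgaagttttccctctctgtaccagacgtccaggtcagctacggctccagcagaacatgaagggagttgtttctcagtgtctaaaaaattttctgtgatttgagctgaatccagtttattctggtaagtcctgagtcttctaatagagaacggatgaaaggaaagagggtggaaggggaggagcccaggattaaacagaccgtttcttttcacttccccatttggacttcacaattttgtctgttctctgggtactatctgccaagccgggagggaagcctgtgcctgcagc
The Fcgr1 window was the only one of the 7 windows of the 6 genes with the STAT spacing of 3 bases, and its TTCCCAGAA begins at position −109 from the start site. On either strand 8.3% of all 32851 RefSeq promoter windows hold such a motif. A spacing of 4 bases, which STAT6 favors, was in none of the 7 windows and in 6.95% of all. The PU.1 core was in the windows of the activating receptors, from position −55 in Fcgr1, −22 in Fcgr4 and −6 in Fcgr3 (−15 from its other start site), and was in 28.3% of all windows. The windows of Fcgr2b, Fcer1g and Fcgrt held none of these letters. A match is a description of sequence and was not tested for binding.

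Depth ran from 29988160 to 39909571 fragments per library, and the fragments behind each value of the 6 genes numbered from 1301 to 35575. Mϕ markers, 9 of 9 of which were detected in every group, summed to 16800 to 19100 FPKM in control, 6220 to 7250 after IL-4 and 20500 to 21600 after IL-6, and without Lyz2, which carried the sum, to 2960 to 3000, 1510 to 1740 and 2550 to 2670. Socs3, a target of the IL-6 signal, rose with IL-6 by 5.12 on the log2 scale (limma, Benjamini-Hochberg adjusted p = 3.02e-05), and Arg1, a target of the IL-4 signal, rose with IL-4 by 10.58 (adjusted p = 1.95e-06). The libraries fall into sets that the groups do not explain: transcripts of 12 intestinal genes gave 24 to 34.4 per 1000000 fragments in IL-4 #1 and the 3 control libraries, but 0.099 to 0.245 in the remaining 5. IL-4 #3 also stood apart from the other IL-4 libraries, with genes of over 5000 exon bases lower by a median of −0.88 on the log2 scale and genes of under 1000 bases higher by 0.17. All control libraries are in the set with intestinal transcripts and all IL-6 libraries are outside it, so set and treatment cannot be separated for IL-6 against control. Each comparison was also fitted with the set as a term, which rests on IL-4 #1 against IL-4 #2 and #3 alone. That fit compares IL-4 #1 with control, and IL-6 with IL-4 #2 and #3. Its value for IL-6 against control joins these steps through the IL-4 libraries. Values without IL-4 #3 are given for some of the results that depend on that library, not for all. The sources do not say whether libraries with the same number came from the same mouse, and the p-values measure only the spread between these libraries. In bulk RNA, fewer cells of a type and less RNA per cell cannot be told apart.

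IL-4 lowered 3 of the 6 genes, Fcgr1, Fcer1g and Fcgrt, and raised none. Across all tested genes 16.3% were lower and 8.55% higher with IL-4. IL-6 raised Fcgr2b and lowered Fcgrt, where 4.58% of all tested genes were higher and 3.82% lower. IL-6-treated Mϕs had 4 of the 6 genes above IL-4-treated Mϕs, Fcgr1, Fcgr2b, Fcer1g and Fcgrt, and none below, while 20.8% of all tested genes were higher and 13.3% lower in that comparison. Fcgr3 and Fcgr4 passed in none of the 3 comparisons. The comparisons share libraries, so they are not independent of each other. With 3 libraries against 3, a two-sided exact permutation test of a single gene cannot go below p = 0.1.

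**Figure D1:**
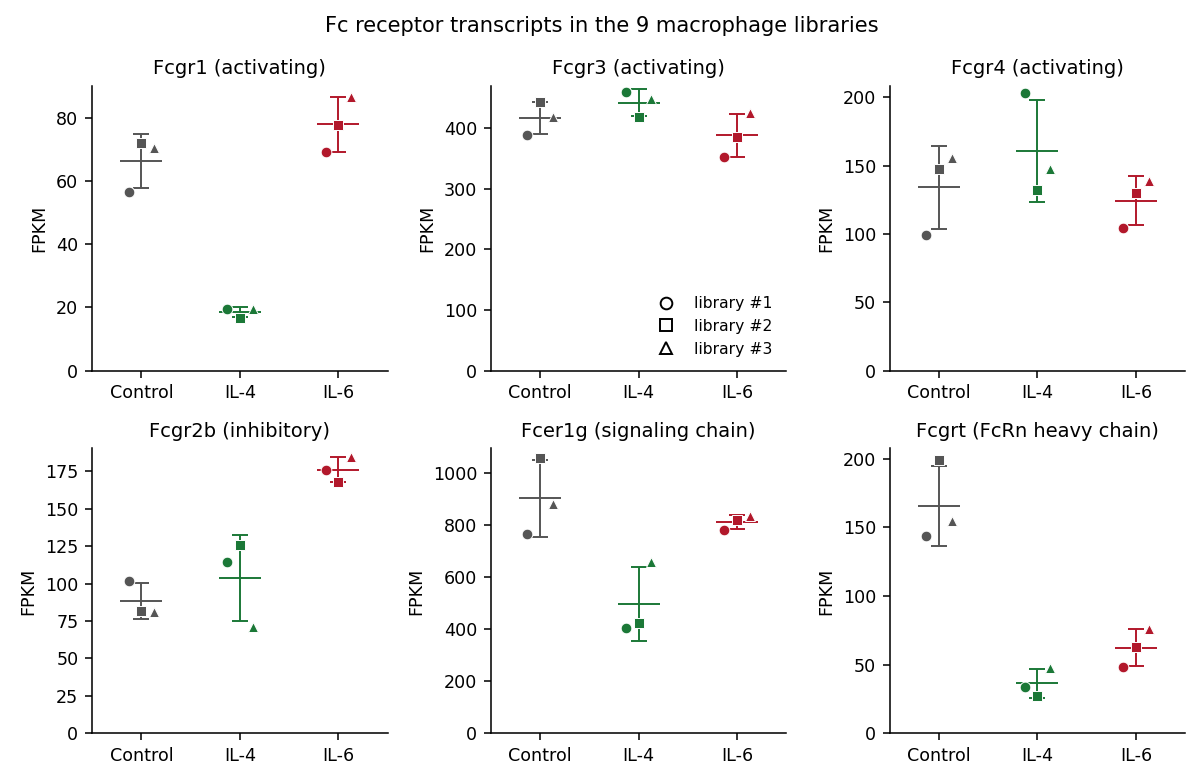
FPKM of the 6 Fc receptor genes in the 9 libraries, with a linear axis from 0 in each panel, the horizontal line at the mean and bars of 1 SD over 3 libraries. Circles, squares and triangles are libraries #1, #2 and #3. The IL-4 libraries lie below all control libraries for Fcgr1, Fcer1g and Fcgrt, and the IL-6 libraries lie above all others for Fcgr2b.

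In control Mϕs the most abundant of the 6 transcripts was Fcer1g, at 902.3 ± 148 FPKM (SD, n = 3), the 33rd of the tested genes by mean FPKM. Fcgr3 followed at 416.8 ± 27.1 FPKM and rank 79, then Fcgrt at 165.5 ± 29.3, Fcgr4 at 134.2 ± 30.4, Fcgr2b at 88.17 ± 12.0 and Fcgr1 at 66.32 ± 8.56 FPKM, the last at rank 686. The ranges of Fcgrt and Fcgr4, and of Fcgr4 and Fcgr2b, overlapped, and the other neighbors in this order did not. With IL-4 the order was Fcer1g, Fcgr3, Fcgr4, Fcgr2b, Fcgrt and Fcgr1, with overlap between Fcer1g and Fcgr3 alone. With IL-6 it was Fcer1g, Fcgr3, Fcgr2b, Fcgr4, Fcgr1 and Fcgrt, with overlap between Fcgr1 and Fcgrt alone. FPKM divide by all exon bases of a gene, which for Fcgr2b are 5790 bases against 3544 in its longest coding transcript, a ratio of 1.63. That ratio is 1.29 for Fcgr3, 1.28 for Fcer1g, 1.19 for Fcgrt and 1 for Fcgr1 and Fcgr4, so Fcgr2b is understated the most in a comparison of levels between genes. A comparison of a gene with itself is untouched only if the groups use its transcripts alike, which was not examined.

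Fcgr1 encodes FcγRI, the high-affinity receptor that also holds monomeric IgG, at chr3:96282909-96293969 on GRCm38. Its level was 56.5, 72.1 and 70.4 FPKM in the 3 control libraries, 19.5, 16.6 and 19.4 after IL-4, and 69.3, 77.8 and 86.6 after IL-6. The IL-4 libraries lay well below all others and close together, while the control and IL-6 ranges overlapped. The IL-4 mean was 27.9% of control, 3.58-fold lower, with a log2 fold change of −1.83 ± 0.143 (SE; limma, adjusted p = 6.39e-05). IL-6 left Fcgr1 at a log2 fold change of 0.23 (95% interval −0.09 to 0.56, adjusted p = 0.419). Between the cytokines Fcgr1 was 4.21-fold higher with IL-6 (log2 2.06, adjusted p = 2.14e-05). With a term for the set of libraries these differences were −1.75 (adjusted p = 0.00246) and 2.11 (adjusted p = 0.000123). As ratios of FPKM the same contrasts were 0.295 (IL-4 #1 to the control mean) and 4.33 (the IL-6 mean to that of IL-4 #2 and #3). These ratios restate that fit and add no further check.

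Fcgr3 encodes FcγRIII, a low-affinity activating receptor, at chr1:171051174-171064935. It was at 389, 443 and 418 FPKM in control, 460, 418 and 449 after IL-4, and 353, 386 and 425 after IL-6. The 3 groups overlapped throughout. Log2 fold changes were 0.09 with IL-4 (95% interval −0.19 to 0.36, adjusted p = 0.63) and −0.11 with IL-6 (−0.38 to 0.17, adjusted p = 0.681). These intervals leave room for changes of Fcgr3 of up to about 0.38 in size.

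Fcgr4, the gene of the activating receptor FcγRIV, lies at chr1:171018920-171029761. Its values were 99.4, 148 and 155 FPKM in control, 203, 132 and 148 after IL-4, and 104, 130 and 139 after IL-6. The highest and the lowest of the 9 were IL-4 #1 and Control #1, and each pair of groups overlapped. The log2 fold changes of Fcgr4 were 0.27 with IL-4 (95% interval −0.26 to 0.79, adjusted p = 0.438) and −0.09 with IL-6 (−0.62 to 0.44, adjusted p = 0.857). Over the 9 libraries log2 levels of Fcgr3 and Fcgr4 had a Pearson r of 0.838, given as a description of libraries that share 3 treatments.

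Fcgr2b, the gene of the inhibitory receptor FcγRIIB, lies at chr1:170958617-170976547. It was at 102, 81.6 and 80.9 FPKM in control, 114, 126 and 71.0 after IL-4, and 176, 168 and 185 after IL-6. All 3 IL-6 libraries were above all 6 others, and IL-4 #3 was the lowest of the 9. With IL-6 the Fcgr2b mean was 2.0-fold that of control (log2 1.00 ± 0.214, SE; limma, adjusted p = 0.0264; exact permutation p = 0.1) and 1.7-fold that of IL-4 (log2 0.81, adjusted p = 0.0213). With a term for the set of libraries the value over control was 1.28 and did not pass (adjusted p = 0.175). It joins the step from control to IL-4 #1 (0.38) and the step from IL-4 #2 and #3 to IL-6 (0.90). The 1.28 thus depends on the IL-4 libraries, the low IL-4 #3 among them, and does not show a larger rise with IL-6. Without Control #2, Control #3 or any IL-6 library the rise over control was 0.95, 0.95 and 0.97 to 1.04. None of these fits passed (adjusted p from 0.0849 to 0.115). The difference between the cytokines passed with the set as a term (0.90, adjusted p = 0.0247) but not without any 1 of the IL-6 libraries (0.77 to 0.84, adjusted p from 0.056 to 0.0721). Without the low IL-4 #3 it was smaller and passed (0.56, limma, adjusted p = 0.00721). It was also smaller after rescaling by median ratios (0.60) and after a correction of every library for gene length and GC content (0.49). Its size thus depends on IL-4 #3 and on the normalization.

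Against control, IL-4 libraries had Fcgr2b at a log2 fold change of 0.20 (95% interval −0.29 to 0.69, adjusted p = 0.533). The value moved with each IL-4 library, to 0.11 without IL-4 #1 and 0.0379 without IL-4 #2, and without IL-4 #3 it was 0.45 and passed (adjusted p = 0.0204), as it did after a correction of every library for gene length and GC content (0.38, adjusted p = 0.0215). Fcgr2b has the most exon bases of the 6 genes, and IL-4 #3 is the library in which genes of over 5000 exon bases were low; the part of gene length in the Fcgr2b value was not tested beyond that correction. Of 50-base stretches in its transcripts 4.38% also occur in other genes, chiefly Fcgr3, and 9.58% of those of Fcgr3 occur in Fcgr2b. How the counting assigned such fragments is not given in the sources used here, and the other 4 genes share no such stretch. Of the Fcgr2b exon bases 2.68% also lie under exons of the gene model Gm38204.

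Fcer1g encodes the FcRγ chain, without which the activating receptors neither reach the surface nor signal, at chr1:171229572-171234365. It was at 765, 1059 and 882 FPKM in control, 406, 423 and 659.8 after IL-4, and 781, 818 and 835 after IL-6. Each IL-4 library lay below each control and IL-6 library, with IL-4 #3 the nearest to them. The IL-4 mean was 55.0% of control (log2 −0.89 ± 0.208, SE; limma, adjusted p = 0.0164), and the IL-6 mean was 89.9% of control (−0.14, 95% interval −0.62 to 0.34, adjusted p = 0.752). Fcer1g was 1.63-fold higher with IL-6 than with IL-4 (0.74, adjusted p = 0.026), which did not pass with the set as a term (0.62, adjusted p = 0.0597). That difference passed in 4 of the 9 fits without a library, among them the fit without IL-4 #3 (0.97, adjusted p = 0.00092). The fall with IL-4 held with the set as a term (−1.14, adjusted p = 0.0441) and without IL-4 #3 (−1.11, adjusted p = 0.000589). It did not pass after rescaling by median ratios (−0.69, adjusted p = 0.132) or without Control #2 (−0.76, adjusted p = 0.0617), Control #3 (−0.90, adjusted p = 0.0549) or IL-4 #2 (−0.79, adjusted p = 0.057).

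Tyrobp, which encodes DAP12, the sister ITAM adaptor that serves other Mϕ receptors, was at 1584 ± 238 FPKM in control, 1145 ± 387 after IL-4 and 1219 ± 10.9 after IL-6 (SD, n = 3). Its log2 fold change with IL-4 was −0.51 (adjusted p = 0.146), and −0.77 without IL-4 #3, which passed (adjusted p = 0.00289). The ratio of Fcer1g to Tyrobp FPKM was 0.569 ± 0.0188 in control, 0.438 ± 0.0206 after IL-4 and 0.666 ± 0.0227 after IL-6. The 3 ranges of this ratio did not overlap, and IL-4 #3, at 0.415, was the lowest of its group, where its Fcer1g level alone was the highest.

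Fcgrt lies at chr7:45092990-45103851, away from the Fcγ receptor cluster. Its values were 143, 199 and 155 FPKM in control, 34.0, 27.3 and 47.5 after IL-4, and 48.5, 62.7 and 75.7 after IL-6. All 6 cytokine-treated libraries were below all control libraries, and each IL-6 library was above each IL-4 library, with IL-6 #1 and IL-4 #3 nearly level. The IL-4 mean was 21.9% of control, 4.56-fold lower (log2 −2.21 ± 0.246, SE; limma, adjusted p = 0.000434), the largest fall among the 6 genes. The IL-6 mean was 37.7% of control, 2.66-fold lower (−1.42 ± 0.246, adjusted p = 0.0106), and 1.72-fold that of IL-4 (0.79, adjusted p = 0.0379).

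The fall of Fcgrt with IL-4 held with a term for the set of libraries (−2.27, adjusted p = 0.00873), which sets IL-4 #1 against control. That same contrast as a ratio of FPKM was 0.205. With the set as a term the value for IL-6 against control was −1.50 and did not pass (adjusted p = 0.18). It joins the step from control to IL-4 #1 (−2.27) and the step from IL-4 #2 and #3 to IL-6 (0.77). The −1.50 thus depends on the IL-4 libraries and does not show a fall with IL-6 apart from the set. The fall passed in all 9 fits that left out a library, at −1.57 to −1.25 (limma, adjusted p up to 0.0495). These fits cannot separate set from treatment either. The difference between the cytokines did not pass with the set as a term (0.77, adjusted p = 0.0685). It passed in 3 of the 9 fits without a library, among them the fit without IL-4 #3 (1.01, adjusted p = 0.00637). B2m, the partner chain that FcRn needs, was at 2695 ± 298 FPKM in control, 2810 ± 253 after IL-4 and 3416 ± 41.1 after IL-6 (SD, n = 3), and passed in none of the comparisons (adjusted p = 0.765, 0.187 and 0.133). Fcgrt was therefore 6.13 ± 0.667% of B2m in control, 1.3 ± 0.424% after IL-4 and 1.83 ± 0.412% after IL-6.

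**Figure D2:**
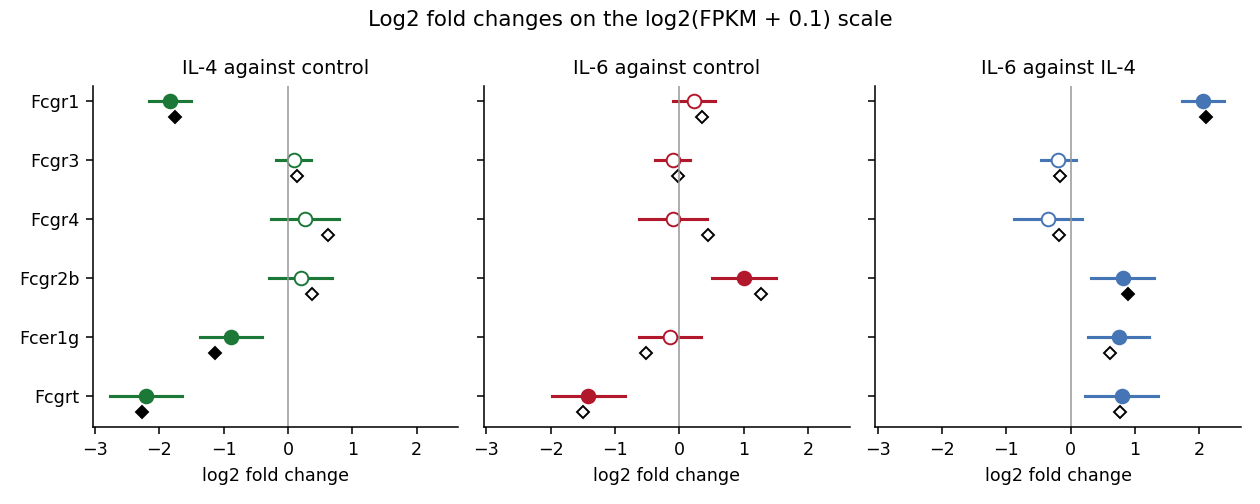
Log2 fold changes of the 6 genes in the 3 comparisons (x axis), as circles with 95% intervals from the fit of all 9 libraries, and as diamonds with a term for the set of libraries; filled symbols passed an adjusted p of 0.05. Fcgr1 and Fcgrt lie furthest below 0 with IL-4, at −1.83 and −2.21, and their diamonds are filled, while no diamond is filled for IL-6 against control.

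The balance within each library was described from the same FPKM, with no test. The summed FPKM of Fcgr1, Fcgr3 and Fcgr4 were 617 ± 63.4 in control, 622 ± 58.4 after IL-4 and 590 ± 62.2 after IL-6 (SD, n = 3), so that the total of activating transcripts differed by less than the spread between libraries. Its makeup differed: Fcgr1 was 10.4, 10.9 and 10.9% of it in control, 2.86, 2.92 and 3.15% after IL-4, and 13.2, 13.1 and 13.3% after IL-6. The share of Fcgr1 varied far less between libraries of a group than its FPKM did, and no 2 groups overlapped. Fcgr3 made up most of the sum in every library, from 64.9 to 73.8%, and Fcgr4 made up 18.2 to 29.8%.

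The summed activating transcripts were 5.34, 8.12 and 7.96 times Fcgr2b in control, 5.99, 4.51 and 8.68 times after IL-4, and 2.99, 3.54 and 3.52 times after IL-6. All IL-6 libraries were below all others, and control and IL-4 overlapped widely. The activating sum differed little between the groups, and Fcgr2b was highest with IL-6. Fcer1g per activating transcript was 1.4, 1.6 and 1.37 in control, 0.595, 0.746 and 1.07 after IL-4, and 1.48, 1.38 and 1.28 after IL-6. The signaling chain thus exceeded the summed receptors in each control and IL-6 library and fell short of them in IL-4 #1 and #2.

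**Figure D3:**
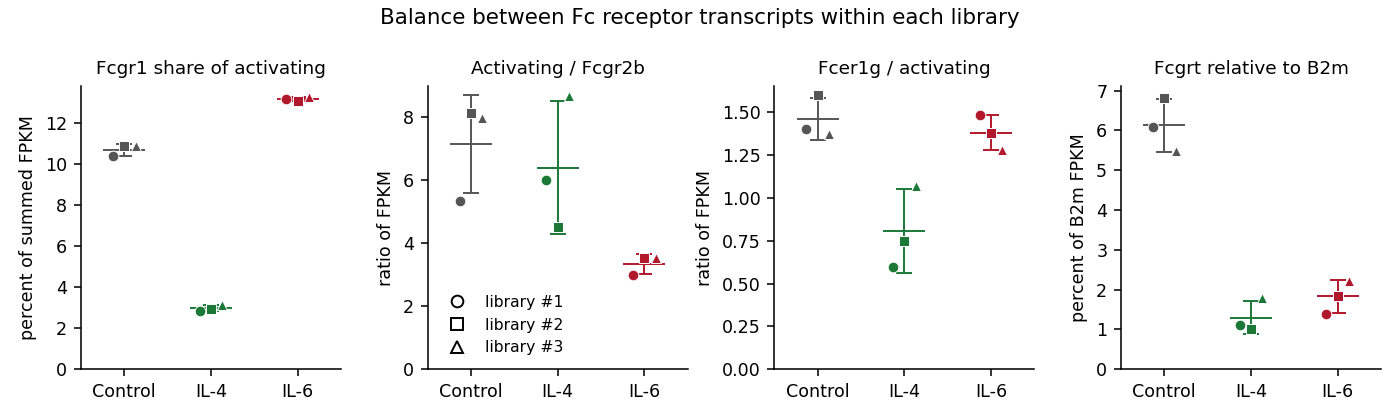
Ratios of FPKM within each of the 9 libraries, on linear axes from 0, with means and SD over 3 libraries: the share of Fcgr1 in the activating sum (percent), the activating sum over Fcgr2b, Fcer1g over the activating sum, and Fcgrt as a percent of B2m. The share of Fcgr1 is lowest with IL-4 (2.98%) and highest with IL-6 (13.2%), and the ratio to Fcgr2b is lowest with IL-6 (3.35).

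Of 14 other genes of receptors that bind antibody, or resemble those that do, 7 passed the filter, and all but Fcrls averaged at most 6.38 FPKM (Trim21 in control) in any group. Of these 7, 2 were higher and 2 lower with IL-4, none passed with IL-6 against control (1 did without IL-4 #3), and 1 was higher and 3 lower with IL-6 against IL-4. The counts with IL-4 are 28.6% each, beside 8.55% and 16.3% of all tested genes, and the median log2 fold change was −0.41 (−0.20 over all). Those with IL-6 against IL-4 are 14.3% and 42.9%, beside 20.8% and 13.3%. For IL-6 against control all tested genes gave 4.58% higher and 3.82% lower. Fcer1a, the IgE-binding chain of the high-affinity IgE receptor that also uses the FcRγ chain, was at 0.517, 0.702 and 1.28 FPKM in control, 5.48, 4.36 and 6.08 after IL-4, and 0.258, 0.920 and 0.555 after IL-6. It rose with IL-4 by 2.60 on the log2 scale (adjusted p = 0.00314; 2.66 with the set as a term, adjusted p = 0.0396), and no IL-4 library overlapped another group. Ms4a2, the β chain of the same receptor, rose by 1.56 (adjusted p = 0.0178; 1.86 with the set as a term, adjusted p = 0.0723), from 0.608 ± 0.195 to 1.96 ± 0.453 FPKM.

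Both chains are expressed by mast cells and basophils, and several markers of those cells were also higher with IL-4. The 8 listed markers summed to 13.2 to 28.9 FPKM in control, 45.4 to 76.9 after IL-4 and 6.51 to 23.5 after IL-6, and 3 of the 5 tested were higher with IL-4 and 1 lower (1 and 0 with the set as a term). Mcpt8, a basophil protease, rose by 2.39 (adjusted p = 0.0203; 2.83 with the set as a term, adjusted p = 0.0862) and Cpa3, a protease of both cells, by 1.48 (adjusted p = 0.0201). Kit, the stem cell factor receptor of mast cells and progenitors, fell by 1.35 (adjusted p = 0.041; −0.67 with the set as a term, adjusted p = 0.486). Kit ran from 0.08717 to 0.4892 FPKM after IL-4 (median 0.3518) and from 0.7671 to 0.8923 in control. Of the mast cell proteases, Tpsb2 and Mcpt4 were at 0 FPKM in every library, and Cma1 had 10 to 29 fragments in the IL-4 libraries and 0 in the other 6. The part of those cells in the rise of Fcer1a and Ms4a2 was not tested.

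Fcrl1, an Fc receptor-like protein best known from B cells, was at 4.60, 5.56 and 4.48 FPKM in control, 0.435, 0.278 and 0.281 after IL-4, and 3.83, 4.34 and 3.89 after IL-6. It fell with IL-4 by 3.54 on the log2 scale (limma, adjusted p = 8.88e-06; −3.21 with the set as a term, adjusted p = 0.000249) and was 3.27 higher with IL-6 than with IL-4 (adjusted p = 7.95e-06). The 8 B cell markers summed to 32.4 to 57.9 FPKM in control, 27.8 to 36.5 after IL-4 and 22.1 to 38.2 after IL-6, and 0 of the 7 tested passed in limma in any of the 3 comparisons (1 was lower with IL-4 without IL-4 #3). The IL-4 range of that sum overlapped both others, and the part of B cells in the values of Fcrl1 was not tested. Fcrla, an intracellular relative also known from B cells, had a log2 fold change with IL-4 of −0.75 (adjusted p = 0.0473), which did not pass after rescaling by median ratios (−0.56, adjusted p = 0.169) or with the set as a term (−0.74, adjusted p = 0.249).

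Fcrls, a scavenger-like relative known from microglia, was the most abundant of these 7 genes at 51.39 ± 8.44 FPKM in control, 54.97 ± 12.9 after IL-4 and 34.07 ± 3.62 after IL-6 (SD, n = 3). It was lower with IL-6 than with IL-4 (log2 −0.67, adjusted p = 0.0319), and against control its value of −0.58 did not pass (adjusted p = 0.127) except without IL-4 #3 (adjusted p = 0.0222). Fcmr, the IgM receptor, stood at −0.89 on the log2 scale with IL-4 (adjusted p = 0.0803), and Trim21, the cytosolic antibody receptor, had −0.41 (adjusted p = 0.466), which turned to 0.25 with the set as a term and to 0.09 without IL-4 #3.

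Downstream of the receptors, 61 of 62 listed genes in 4 groups were tested. With IL-4 7 were higher and 15 lower (11.5% and 24.6%, beside 8.55% and 16.3% of all tested genes), with a median log2 fold change of −0.30 (−0.20 over all genes). These counts were 10 and 12 after rescaling by median ratios, 12 and 23 without IL-4 #3 and 5 and 5 with the set as a term. With IL-6 against control 5 were higher and 4 lower (8.2% and 6.56%, beside 4.58% and 3.82%; median 0.10, 0.00 over all genes), 12 and 6 without IL-4 #3, and 2 and 1 with the set as a term. With IL-6 against IL-4 20 were higher and 9 lower (32.8% and 14.8%, beside 20.8% and 13.3%; median 0.46, 0.22 over all genes), 19 and 11 after rescaling, 24 and 14 without IL-4 #3 and 23 and 9 with the set as a term.

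Among the 20 kinases and relay proteins, 3 were higher and 5 lower with IL-4 (15.0% and 25.0%, beside 8.55% and 16.3% of all genes). Fyn, a Src family kinase, rose by 1.80 on the log2 scale (adjusted p = 0.000341; 1.89 with the set as a term, adjusted p = 0.00625). Lyn, of the same family, fell by 0.98 (adjusted p = 0.0145) and the adaptor Lat rose by 1.59 (adjusted p = 0.0184), and neither passed with the set as a term (adjusted p = 0.227 and 0.275). Lyn ran from 24.61 to 46.9 FPKM after IL-4 (median 42.39) and from 68.47 to 78.72 in control. Syk, which binds the phosphorylated ITAM, had a value of −0.79 with IL-4 that did not pass (adjusted p = 0.0609) except without IL-4 #3 (−0.45, adjusted p = 0.0134). With IL-6, 3 of the 20 were higher and 3 lower (15.0% each, beside 4.58% and 3.82% of all tested genes). The kinases Fgr and Src rose by 2.30 and 2.23 (adjusted p = 0.000176 and 0.000812), the adaptors Blnk and Lat2 fell by 1.52 and 1.39 (adjusted p = 0.00108 and 0.00312), and Lat2 alone of these 4 did not pass with the set as a term (adjusted p = 0.0515).

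Among the 12 inhibitory phosphatases and adaptors, 2 were higher and 4 lower with IL-4 (16.7% and 33.3%, beside 8.55% and 16.3%). Cblb, a ubiquitin ligase that damps receptor signaling, rose by 2.71 (adjusted p = 0.000203), and Dok2, an adaptor that recruits RasGAP, rose by 2.63 (adjusted p = 2.05e-05). Dok3, an adaptor that binds SHIP1, fell by 1.53 (adjusted p = 0.000546), and these 3 passed with the set as a term. Inpp5d, which encodes SHIP1 itself, the phosphatase that FcγRIIB recruits, fell by 1.30 (adjusted p = 0.0164) but did not pass with the set as a term (−0.84, adjusted p = 0.245). With IL-6 against control 0 of the 12 passed in limma (2 were higher without IL-4 #3), beside 4.58% higher and 3.82% lower of all tested genes. Inpp5d stood at 0.02 there (limma, adjusted p = 0.973). Fcgr2b and Inpp5d, the inhibitory receptor and its phosphatase, were both higher with IL-6 than with IL-4, Inpp5d by 1.32 (adjusted p = 0.0118; 1.55 with the set as a term, adjusted p = 0.00804). Inpp5d ran from 9.783 to 23.47 FPKM after IL-4 (median 21.44), 37.36 to 50.58 in control and 41.95 to 44.15 after IL-6. The size of its differences from IL-4 thus rests in part on the lowest IL-4 library.

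Of the 26 genes of PI3K signaling and the phagocytic machinery, 2 were higher and 6 lower with IL-4 (7.69% and 23.1%, beside 8.55% and 16.3%). Coro1a, an actin-binding protein of the phagocytic cup, fell by 2.26 (adjusted p = 6.1e-05; −2.39 with the set as a term, adjusted p = 0.00143), and Pik3r1, a regulatory subunit of PI3K, fell by 1.37 (adjusted p = 0.0353), which did not pass with the set as a term (adjusted p = 0.447). Pik3r1 ran from 2.476 to 7.68 FPKM after IL-4 (median 5.886) and from 9.753 to 17.47 in control. Pla2g4a, the cytosolic phospholipase that releases arachidonate, rose by 1.30 with IL-4 (adjusted p = 0.0224) and by 1.35 with IL-6 (adjusted p = 0.0426), of which the IL-4 rise also passed with the set as a term (1.81, adjusted p = 0.0355) while the IL-6 rise did not (2.11, adjusted p = 0.121). Arf6, a small GTPase of membrane delivery to the cup, rose by 0.64 with IL-4 (adjusted p = 0.00575), which did not pass with the set as a term (0.65, adjusted p = 0.0594). With IL-6 2 of the 26 were higher and 1 lower (7.69% and 3.85%, beside 4.58% and 3.82%). Vav1, which activates Rac, rose by 0.48 (limma, adjusted p = 0.0495), and Pak1, a kinase that Rac activates, fell by 0.72 (adjusted p = 0.00339). Neither passed with the set as a term (adjusted p = 0.201 and 0.104).

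**Figure D4:**
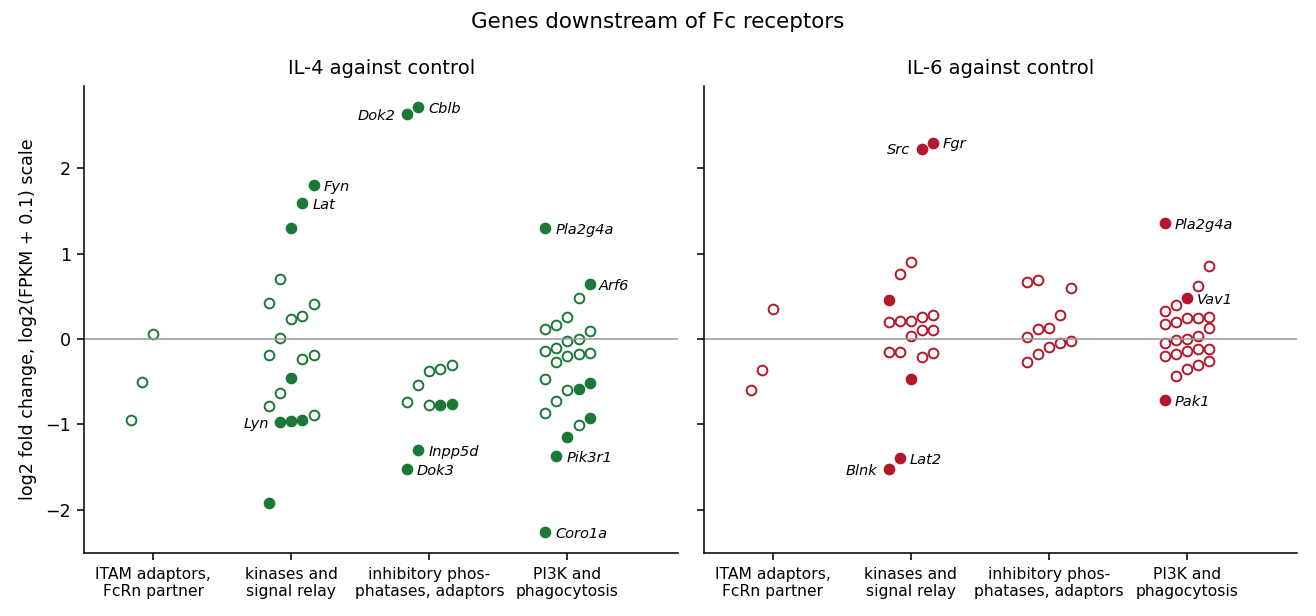
Log2 fold changes (y axis) of the 61 tested genes downstream of Fc receptors, in 4 groups (x axis), for each cytokine against control; each circle is a gene and filled circles passed an adjusted p of 0.05. With IL-4, 7 filled circles lie above 0 and 15 below, from −2.26 for Coro1a to 2.71 for Cblb, and with IL-6 there are 5 above and 4 below.

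Markers of other cells moved with the same comparisons. Granulocyte markers, 10 of 10 detected, summed to 4810 to 8510 FPKM in control, 2170 to 4000 after IL-4 and 8050 to 11100 after IL-6, and 9 of the 10 were lower with IL-4 and 10 of 10 higher with IL-6 than with IL-4. Of all tested genes 16.3% were lower with IL-4 and 20.8% higher with IL-6 than with IL-4. Of the 10 granulocyte markers, 6 were lower with IL-4 after rescaling by median ratios and 3 with the set as a term. Of the 9 Mϕ markers 5 were lower with IL-4 and 0 higher (55.6% and 0.0%, beside 16.3% and 8.55% of all tested genes). These counts became 4 and 2 after rescaling and 6 and 2 without IL-4 #3. Granulocytes also express Fc receptor genes, Fcer1g, Fcgr3 and Fcgr2b among them, and the part of such cells in the values of any of the 6 genes was not tested. T and NK cell markers summed to 1.45 to 1.53 FPKM in control, 23.3 to 43.1 after IL-4 and 1.4 to 2.11 after IL-6, and dendritic cell markers to 5.77 to 7.26, 2.92 to 3.73 and 4.4 to 8.58. Gzma, a protease of cytotoxic lymphocytes, carried the T and NK cell sum, and without it the other 7 markers summed to 1.45 to 1.53, 2.68 to 3.27 and 1.37 to 1.98 FPKM.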

How the data were processed

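The authors deposited FPKM of 53379 genes for 9 libraries of polyadenylated RNA. The methods of the study name STAR 2.4.2a, Cufflinks 2.2.1, the GRCm38 genome and an older GENCODE annotation. Here the gene identifiers were matched to GENCODE M21 on GRCm38, and 94.8% matched with their version. Of 100940 values below 100 fragments, 100.0% were whole fragments over the M21 exon length within 0.05, so fragments and depth were read back from the FPKM. Which program and annotation made the table is therefore not settled. A filter of genes by the authors is not stated.

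Genes averaging at least 0.5 FPKM, 12824 in all, were fitted as log2(FPKM + 0.1) with limma 3.58.1 (trend and robust options) in R 4.3.3, with all 9 libraries in 1 model and Benjamini-Hochberg adjustment over all genes tested. A gene passed at an adjusted p under 0.05, and p-values of genes are from this limma test. Fold changes understate the change of low genes. Exact permutation tests were two-sided. Folds in percent or "times" are ratios of mean FPKM. The same fit was tested on simulated data.

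The 6 genes, the lists and the tests were chosen with earlier results of these data known. Named are the 6 genes, B2m and Tyrobp, each related receptor above the filter, at most the 2 largest rises and 2 largest falls of each downstream list and comparison among genes that passed (values of Syk and of Inpp5d in the other comparisons, and the single cell markers, were added after their values were seen), the 3 genes most alike each of the 6, and Socs3 and Arg1. A downstream gene that this rule names is not reported here. The alternatives were other pseudocounts (0.01 and 1), filters and normalizations, fits of the groups compared alone, a fold threshold, a replicate block, the set of libraries as a term, limma voom on the fragments read back and leaving out each library. A correction of every library for gene length and GC content (a spline of each, 5 df) was chosen after seeing the data. Whether equal library numbers pair the samples is not stated, and deviations from the group means correlated over 0.1 in all 3 pairs of control and IL-6 alone (0.408, 0.201 and 0.166). Some pairs of unlike number reached similar or higher values, such as 0.176 for Control #2 with IL-6 #3 and 0.584 for Control #2 with IL-4 #3. These values do not settle a pairing. Promoters were read from RefSeq windows on GRCm38.p6 and matched 6 of the 6 genes. Protein sequences were not used here. Descriptions used Python 3.11.15 with pandas 2.3.3 and numpy 2.4.6, and figures matplotlib 3.10.9.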

Additional observations from a re-analysis of the deposited data

How the results depend on the processing

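The lower Fcgr1 and Fcgrt with IL-4 and the higher Fcgr1 with IL-6 than with IL-4 kept their direction and passed in all 21 alternatives, at −1.94 to −1.63, −2.42 to −2.01 and 1.86 to 2.15 on the log2 scale. Calls were lost elsewhere, and except where noted the cause was not tested. With a term for the set of libraries, Fcgr2b (1.28) and Fcgrt (−1.50) did not pass for IL-6 against control, nor Fcer1g (0.62) and Fcgrt (0.77) for IL-6 against IL-4. After rescaling by median ratios, Fcer1g did not pass for IL-4 against control (−0.69), nor Fcer1g (0.54) and Fcgrt (0.59) for IL-6 against IL-4. In fits of only the groups compared, the same was true of Fcer1g with IL-4 (−0.89) and of Fcgr2b (0.81), Fcer1g (0.74) and Fcgrt (0.79) for IL-6 against IL-4. A required fold of 2 dropped these 4 by construction, with values unchanged at −0.89, 0.81, 0.74 and 0.79. Without a filter on low values Fcgrt did not pass for IL-6 against IL-4 (0.79, adjusted p = 0.072). Under quantile normalization Fcgr3, which did not pass, changed sign for IL-6 against IL-4 (0.21, adjusted p = 0.274) and for IL-4 against control (−0.32, adjusted p = 0.146). Fcgr4, which did not pass either, changed sign for IL-6 against control with the set as a term (0.45, adjusted p = 0.413) and without Control #3 (0.03) or IL-6 #1 (0.03). The correction for length and GC content made Fcgr2b pass with IL-4 (0.38).

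When 1 library at a time was left out, Fcer1g ranged from −1.11 to −0.76 and Fcgr2b from 0.0379 to 0.45 with IL-4. Fcgr2b ranged from 0.95 to 1.11 and Fcgrt from −1.57 to −1.25 for IL-6 against control. For IL-6 against IL-4 the ranges were 0.56 to 0.97 for Fcgr2b, 0.62 to 0.97 for Fcer1g and 0.61 to 1.01 for Fcgrt. The Fcgr2b difference between the cytokines did not pass without IL-6 #1, #2 or #3 (0.81, 0.84 and 0.77), the Fcer1g difference without IL-4 #1 or #2 (0.62 and 0.65) or IL-6 #1, #2 or #3 (0.77, 0.74 and 0.72), and the Fcgrt difference without Control #1 or #3 (0.79 and 0.79), IL-4 #1 or #2 (0.77 and 0.61), or IL-6 #2 or #3 (0.78 and 0.64).

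Genes that passed over the whole table numbered 3186 with IL-4 and 1077 with IL-6, each against control, and 4375 between the cytokines. In that order they numbered 1839, 628 and 2479 with a mean of at least 5 FPKM, 1784, 690 and 2613 with a fold of 2, 1367 and 187 with the set as a term for the comparisons with control, and 1796 and 2822 with only the groups compared. Leaving out a library gave 2026 (without Control #3) to 4848 (without IL-4 #3), 462 (without Control #3) to 3168 (without IL-4 #3) and 2911 (without IL-6 #3) to 5544. The median log2 fold change over all genes with IL-4 was −0.20, and rescaling by median ratios moved the share of higher calls from 34.4% to 49.3% with IL-4 and from 61.1% to 50.8% between the cytokines. With IL-6 it moved from 54.5% to 78.6% with the set as a term. Quantile normalization gave 45.7% and 47% for the comparisons with IL-4 libraries.

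For the pairs with IL-4 libraries, equal numbers did not deviate together throughout: deviations from the group means correlated at 0.521, −0.415 and 0.0777 (Control with IL-4) and 0.281, −0.0612 and 0.153 (the cytokines) for #1, #2 and #3. With the replicate block 3023, 908 and 4463 genes passed, and no call of the 6 genes changed (Fcer1g with IL-4 −0.89, adjusted p = 0.0217). Limma voom on the fragments read back changed none either, with 2814, 899 and 3890 genes. Between 1301 and 35575 fragments lie behind each value of the 6 genes, and 3 libraries a group limit what the tests can show.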

Other observations

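The tested genes whose log2(FPKM + 0.1) followed each Fc receptor gene most closely over the 9 libraries were listed as a description, since libraries share 3 treatments and any gene that moves between groups correlates with others that do. Nearest to Fcgr1 were Dnah2 (Pearson r = 0.9974), Mgst2 (0.9972) and Il18 (0.9972), and nearest to Fcgr2b were Jarid2 (0.989), Zswim4 (0.9882) and Gpr35 (0.9877). Nearest to Fcer1g were Ptpn18 (0.9927), Haghl (0.9914) and Chst12 (0.9876), and nearest to Fcgrt were Sft2d1 (0.9925), Gm15513 (0.9886) and Tmem86a (0.9856). Fcgr3 and Fcgr4, which passed in no comparison, had looser neighbors, Praf2 (0.9481), Kdelr2 (0.9216) and Nkg7 (0.9179) for Fcgr3 and Mtfp1 (0.9268), Gimap9 (0.9153) and Chid1 (0.902) for Fcgr4. Among the 6 genes themselves the closest pairs were Fcgr1 and Fcer1g (0.875), Fcgr3 and Fcgr4 (0.838) and Fcer1g and Fcgrt (0.832), and Fcgr2b and Fcgr3 had the lowest value (−0.572).

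Fcgbp, a mucus protein with an Fc-binding name, and Pigr, the epithelial receptor that carries IgA and IgM across mucosa, were below the filter. Fcgbp had 22 to 24 fragments in each control library, 19 in IL-4 #1 and 0 in each of the other 5 libraries, where a count of 0 allows up to 3 fragments. Pigr had 58 to 82 fragments in the control libraries, 61 in IL-4 #1, 4 in IL-4 #2 and 0 in the other 4. Both were thus seen chiefly in the libraries that hold intestinal transcripts, and neither was read as a response to a cytokine.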
